A study of Mus musculus with 12 samples.

Results

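Photoreceptor transcription factors were followed in explants of the adult mouse retina that were cultured in low or high glucose. The group comprises 10 genes named by symbol: Crx, Nrl, Nr2e3, Otx2, Neurod1, Casz1, Crxos, Mef2d, Esrrb and Rorb. Each symbol matched 1 Ensembl identifier among the 53707 genes of the count table, and all 10 had enough counts to be tested.

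Retinas of wild-type C57BL/6J mice at 28 days of age were freed of the sclera and the retinal pigment epithelium and kept as explants, that is, as whole tissue in culture medium, for 48 hours. The medium held 5 mM or 25 mM glucose, and both arms carried the same B27 and N2 supplements. Total RNA was sequenced in 3 biological replicates per concentration, each with 2 technical replicates, which gave 12 libraries. The first technical replicates carry the batch label 1 and the second the batch label 2. The sources used here do not say whether biological replicates were separate animals, so that p-values measure the spread between these samples, which may be technical.

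Photoreceptors arise from retinal progenitors under a cascade of DNA-binding proteins. The homeodomain proteins OTX2 and CRX open and drive the photoreceptor program, the leucine zipper protein NRL and the nuclear receptor NR2E3 set the rod form of it, and their joint binding keeps the phototransduction genes active through life. Loss of NRL or NR2E3 lets cone genes come up in cells that would be rods, and mutations in several of these factors cause retinal degeneration in patients.

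Estimated counts were summed over the 2 technical replicates and are given as CPM, counts scaled to a fixed library size after TMM normalization. The sums held between 43002302 and 60098862 counts at 5 mM and between 37944826 and 42451809 at 25 mM. A change is called at a false discovery rate (FDR) under 0.05 in the quasi-likelihood test of edgeR, with Benjamini-Hochberg adjustment over 21061 genes. Markers of rods, cones, bipolar cells, amacrine cells and Mueller glia were all detected. Of 8 markers of the pigment epithelium, Rpe65, Mlana and Pmel had too few counts to be tested. The other 5 were tested, 0 were called, and 1 had a log2 fold change above 0. Apart from Rlbp1, a marker shared with Mueller glia, the mean levels of these 5 were at or below 1.61 CPM.

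Of the 10 factors, 6 rose at 25 mM glucose and 0 fell. The 6 were Crx, Nrl, Nr2e3, Neurod1, Casz1 and Crxos, and their log2 fold changes lay between 0.99 and 2.08. Across all genes tested, 1.98% were called and 1.47% were called and higher at 25 mM. Rorb, Esrrb, Otx2 and Mef2d did not pass the test. All 10 log2 fold changes were above 0, compared with 49.3% of all genes, and their median was 1.15 beside -0.01 over all genes. In 9 of the 10 factors the 25 mM replicates were all higher than the highest 5 mM replicate, which held for 16.0% of all genes. The paper on these data already names Neurod1, Casz1 and Crxos as higher at 25 mM, and the members were chosen with earlier results known. The counts beside all genes are therefore a description of the group. Under a stricter rule, FDR below 0.01 with more than a 2-fold change, edgeR called 0 factors and 0% of all genes, although 9 factors had an unadjusted p under 0.05, as did 28.7% of all genes. DESeq2 called 7 factors at an FDR under 0.05, Rorb in addition, and 14.3% of all genes, and 5 factors and 6.25% of all genes at the stricter threshold.

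Libraries differed within replicates before any comparison was made, and in neither arm was a library closest to its own technical partner. Over 10618 genes, technical replicate 1 of 25 mM replicate 2 correlated at 0.974 with technical replicate 2 of 25 mM replicate 1 but at 0.871 with its own technical partner. That partner was closest to a 5 mM library, technical replicate 2 of 5 mM replicate 1, at 0.963. Both libraries of 5 mM replicate 1 were closest to that 25 mM library, at 0.959 and 0.963, against 0.926 with each other. The 2 libraries of the 25 mM arm that correlated at 0.974 had the highest summed CPM of 8 rod markers. Their sums were 11429 in replicate 1 and 10265 in replicate 2, and the other 4 libraries at 25 mM held 4340 to 7873. At 5 mM the sum lay between 2873 and 5450. The factors differed between these libraries to unequal degrees: Neurod1 had 152 and 454 CPM in the technical replicates of 25 mM replicate 1, a ratio of 2.99, whereas Crxos had 24.6 and 25.6 CPM. Calls, fold changes, transcript shares and some levels relative to rods are therefore also given without those 2 libraries, an alternative chosen after seeing the data. The gene lists, the order of the factors by level, the ratios between factors and the correlations are given with all libraries.

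OTX2 stands at the head of the cascade; it is needed for progenitors to become photoreceptors and stays on in bipolar cells. Otx2 (ENSMUSG00000021848, chromosome 14 of GRCm38, 48657677 to 48673819, minus strand) had 169, 119 and 116 CPM in replicates 1 to 3 at 5 mM. At 25 mM it had 260, 192 and 172 CPM. The lowest 25 mM value was just above 5 mM replicate 1, so the arms did not overlap but came close. The log2 fold change was 0.63 (SE 0.23, FDR 0.122, edgeR). It was the factor whose effect differed most by batch, 1.24 (FDR 0.0199) in batch 1 and 0.16 (FDR 0.827) in batch 2; the difference of -1.20 had an unadjusted p of 0.0103 and an FDR of 0.213 in edgeR's test of the batch-by-glucose term. Exons of Otx2 share bases with the antisense gene Otx2os1, which had a log2 fold change of 0.98 (FDR 0.0622), and the sources do not tell if strand was used in counting.

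CRX, the cone-rod homeobox protein, acts after OTX2 and activates most genes of the outer segment. Crx (ENSMUSG00000041578, chromosome 7, 15865947 to 15879968, minus strand) had 304, 218 and 207 CPM at 5 mM and 728, 565 and 547 CPM at 25 mM. Replicate 1 was the highest of each arm, and the arms were far apart. The level went from 243 ± 53.1 to 613 ± 99.98 CPM (SD, n = 3 each), a log2 fold change of 1.33 (SE 0.22, FDR 0.0348, edgeR). Across single libraries the highest 5 mM value was 403 CPM and the lowest 25 mM value 467 CPM, so that even the 12 libraries did not overlap. The difference was larger for Crx than for Otx2, and the ratio of Crx to Otx2 was 1.81 ± 0.0230 at 5 mM and 2.97 ± 0.190 at 25 mM, with no overlap (exact permutation test, two-sided p = 0.1, the smallest that 3 against 3 can give). This ratio was chosen after its values were seen, and over single libraries it overlapped, at 1.45 to 2.64 against 2.17 to 3.73.

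Crxos lies head to head with Crx on the other strand, and its first start is 2662 bases from that of Crx. Crxos (ENSMUSG00000074365, chromosome 7, 15882617 to 15904020, plus strand) had 9.92, 10.7 and 9.96 CPM at 5 mM and 24.5, 26.0 and 28.2 CPM at 25 mM. The values were tight in both arms, and the log2 fold change of 1.37 (SE 0.19, FDR 0.0261, edgeR) was nearly that of Crx. The exons of the pair do not overlap in the annotation, so no exonic base is common to both. The 250 bases before each start, from RefSeq on GRCm38.p6, are shown because the pair rose together; capitals mark matches on either strand to TAATCC, the core that CRX and OTX2 bind, and to TGCTGA, a part of the element that NRL binds.
Crx, chr7:15879956-15880205, minus strand: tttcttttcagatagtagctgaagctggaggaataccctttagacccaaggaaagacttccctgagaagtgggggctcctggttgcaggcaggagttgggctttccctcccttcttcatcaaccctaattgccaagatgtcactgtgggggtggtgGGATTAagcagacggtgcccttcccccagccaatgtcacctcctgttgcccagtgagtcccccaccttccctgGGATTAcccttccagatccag
Crxos, chr7:15882367-15882616, plus strand: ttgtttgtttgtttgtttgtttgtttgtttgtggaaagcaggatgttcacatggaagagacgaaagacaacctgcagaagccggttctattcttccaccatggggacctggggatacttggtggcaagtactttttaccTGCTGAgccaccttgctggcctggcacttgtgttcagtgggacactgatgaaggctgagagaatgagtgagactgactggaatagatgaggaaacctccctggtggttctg
The Crx stretch holds TAATCC at 94 and at 21 bases before the start, in each case read as GGATTA. The letters TAATCC occur in 7.06% of 32851 promoter windows of 300 bases, and TGCTGA in 19.5%. The Crxos stretch holds TGCTGA at 111 bases before the start. All 10 factors had at least 1 such window, 18 in all, and TAATCC occurred in windows of 3 of them, Crx, Otx2 and Casz1. A match of letters is a description and not a site of binding.

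NEUROD1 is a basic helix-loop-helix protein that supports photoreceptor survival and is also made by amacrine cells and young neurons. Neurod1 (ENSMUSG00000034701, chromosome 2, 79452521 to 79456751, minus strand) had 65.5, 35.1 and 32.3 CPM at 5 mM. At 25 mM it had 293, 155 and 116 CPM. It had the largest fold change and the largest standard error of the group, and its level went from 44.3 ± 18.4 to 188 ± 93.0 CPM (SD, n = 3 each). The log2 fold change was 2.08 (SE 0.40, FDR 0.0461, edgeR). Replicate 1 was the highest in both arms, and all 6 libraries at 25 mM lay above the 6 at 5 mM. Exons of Neurod1 share 201 bases with Cerkl on the same strand, which is 7.37% of its exonic length, and Cerkl rose as well, with a log2 fold change of 2.21 (FDR 0.0295); reads in the shared bases cannot be assigned to one of them.

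**Figure D1:**
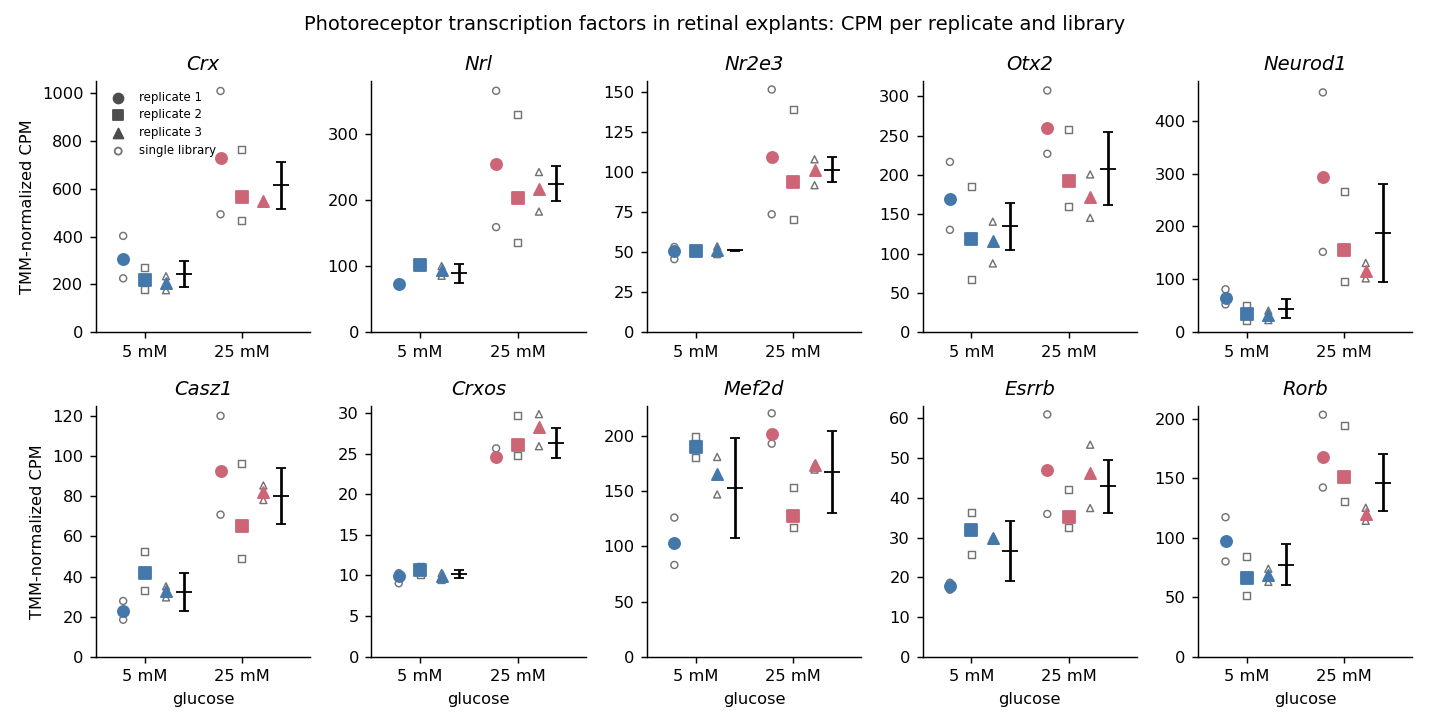
Level of each factor in TMM-normalized CPM (vertical axis, linear from 0) at 5 mM and 25 mM glucose. Filled symbols are the 3 biological replicates per arm, open symbols the 2 libraries of each, and bars the mean ± SD; the filled symbols of Mef2d overlap between arms and those of the other 9 genes do not.

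NRL decides between rod and cone, and without it rods are not made. Nrl (ENSMUSG00000040632, chromosome 14, 55518978 to 55524981, minus strand) had 73.2, 101 and 93.4 CPM at 5 mM and 254, 203 and 216 CPM at 25 mM. The replicate that was lowest at 5 mM carried the highest Crx, Otx2 and Neurod1 of that arm. Nrl went from 89.1 ± 14.3 to 224 ± 26.4 CPM, a log2 fold change of 1.33 (SE 0.19, FDR 0.0261, edgeR). The effect was 1.36 in batch 1 and 1.43 in batch 2, and the libraries of the arms did not overlap.

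NR2E3 is a nuclear receptor switched on by NRL that represses cone genes in rods. Nr2e3 (ENSMUSG00000032292, chromosome 9, 59942771 to 59960659, minus strand) was nearly constant at 5 mM, with 50.8, 50.7 and 51.6 CPM. At 25 mM it had 109, 93.6 and 101 CPM. The arms were far apart, and the log2 fold change was 0.99 (SE 0.15, FDR 0.0305, edgeR), 0.97 in batch 1 and 1.13 in batch 2. The difference was smaller for Nr2e3 than for Nrl, and their ratio was 0.583 ± 0.0986 at 5 mM and 0.453 ± 0.0203 at 25 mM, without overlap (exact permutation test, two-sided p = 0.1, the smallest possible), again a ratio chosen after its values were seen. Over single libraries it overlapped too, at 0.497 to 0.759 against 0.415 to 0.518.

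RORB is a nuclear receptor needed early for Nrl to be switched on, and a form that starts at an internal promoter is known from photoreceptors. Rorb (ENSMUSG00000036192, chromosome 19, 18930605 to 19111196, minus strand) had 97.1, 66.0 and 69.1 CPM at 5 mM and 168, 151 and 120 CPM at 25 mM. The arms did not overlap, and the log2 fold change of 0.92 (SE 0.21) had an FDR of 0.0609 in edgeR, just past the threshold. DESeq2 gave an FDR under it, and the libraries of the arms overlapped by a narrow margin, at up to 117 CPM for 5 mM and from 114 CPM for 25 mM.

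ESRRB is a nuclear receptor linked to energy metabolism and rod survival. Esrrb (ENSMUSG00000021255, chromosome 12, 86361117 to 86521628, plus strand) had 17.9, 31.9 and 29.8 CPM at 5 mM and 47.1, 35.2 and 46.3 CPM at 25 mM. Replicate 1 was the lowest at 5 mM and replicate 2 the lowest at 25 mM, and the arms did not overlap. The log2 fold change was 0.69 (SE 0.25, FDR 0.126, edgeR). With offsets for GC content and gene length it became 1.08 (FDR 0.00583). The same offsets called 9 of the 10 factors and 14.6% of all genes. With them the log2 fold change of Rorb was 0.60 (FDR 0.0227, edgeR), lower than without them.

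CASZ1 is a zinc finger protein that favours late-born cells, rods among them, and shapes the rod nucleus. Casz1 (ENSMUSG00000028977, chromosome 4, 148804429 to 148954889, plus strand) had 22.7, 41.6 and 32.7 CPM at 5 mM and 92.7, 65.1 and 82.1 CPM at 25 mM. Replicate 1 was the lowest at 5 mM and the highest at 25 mM. The log2 fold change was 1.31 (SE 0.25, FDR 0.0460, edgeR). MEF2D, a MADS-box protein of muscle and neurons, binds together with CRX at photoreceptor enhancers. Mef2d (ENSMUSG00000001419, chromosome 3, 88142372 to 88172086, plus strand) had 103, 190 and 166 CPM at 5 mM and 202, 128 and 173 CPM at 25 mM. It was the factor whose arms overlapped, with a log2 fold change of 0.13 (SE 0.26, FDR 0.759, edgeR; exact permutation test, two-sided p = 0.6). Small annotated genes share exonic bases with Casz1 (Gm13205), Mef2d (1700113A16Rik) and Nr2e3 (Gm15507), and their means stayed at or below 1.07 CPM.

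**Figure D2:**
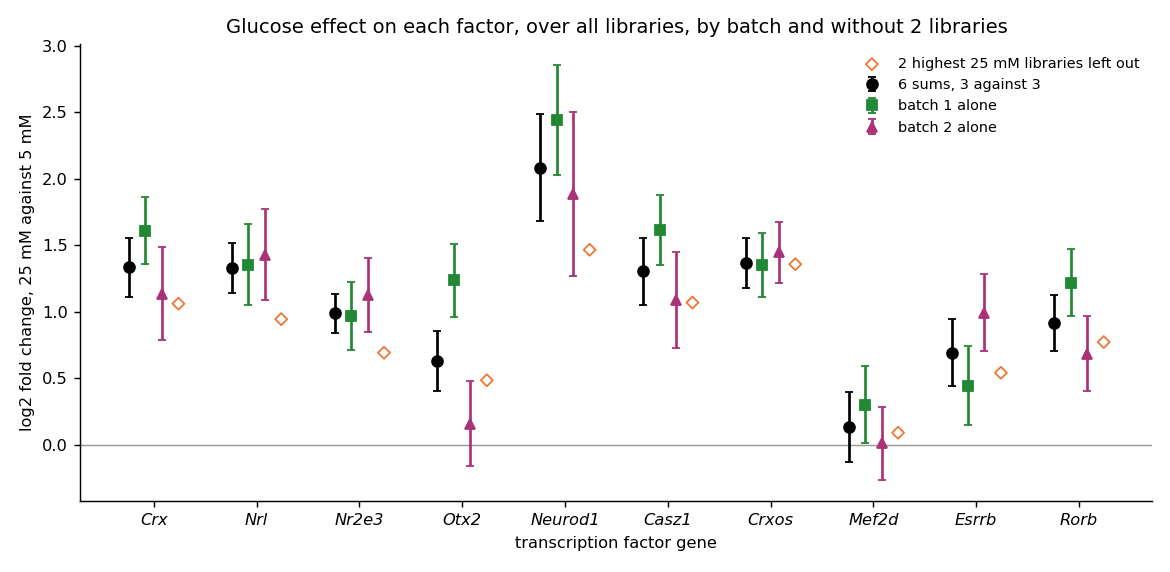
Log2 fold change of each factor at 25 mM against 5 mM glucose (vertical axis) from the 6 summed replicates, from batch 1 alone, from batch 2 alone and without 2 libraries of the 25 mM arm (open symbols, no error shown); bars are standard errors. Estimates from both batches are above 0 for all 10 genes, and Otx2 shows the widest gap between them, 1.24 against 0.16.

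The calls depended on single replicates. In batch 1 alone, edgeR called 8 factors and 17.3% of all genes; in batch 2 alone it called 0 factors and 0% of all genes, with 8 factors and 11.7% of all genes at an unadjusted p under 0.05. Without 5 mM replicate 1, 8 factors were called, beside 26.6% of all genes, and without 25 mM replicate 3, 5 factors beside 2.27%. Leaving out replicate 2 or 3 of the 5 mM arm, or replicate 1 or 2 of the 25 mM arm, left 0 factors and 0 genes called by edgeR, with 7 to 9 factors and 17.6% to 18.8% of all genes at an unadjusted p under 0.05. Without the 2 libraries of the 25 mM arm that resembled each other, 0 factors and 0 genes were called, with 7 factors and 19.1% of all genes at an unadjusted p under 0.05 and an FDR of 0.128 for Crx, 0.142 for Nrl and 0.131 for Neurod1. Without the 25 mM library that resembled 5 mM, 5 factors and 0.802% of all genes were called. Over 23 alternatives the log2 fold change of Crx lay between 1.06 and 1.61, Crxos between 1.31 and 1.57, Nrl between 0.95 and 1.57 and Nr2e3 between 0.69 and 1.17. Casz1 lay between 1.07 and 1.71 and Neurod1 between 1.47 and 2.48. The ranges of the factors that were not called were wide for their size, 0.16 to 1.24 for Otx2, 0.45 to 1.08 for Esrrb, 0.59 to 1.22 for Rorb and -0.087 to 0.48 for Mef2d. In single libraries, Crx, Nrl, Nr2e3, Neurod1 and Crxos had every 25 mM value above every 5 mM value, 5 of 10 factors against 3.25% of all genes.

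Levels between genes were compared per length, as TPM, transcript counts scaled by transcript length and library size. At 5 mM Crx led with 158 ± 29.2 TPM and Otx2 followed with 136 ± 25.8, within their spread. Nrl came next with 90.9 ± 18.7 TPM and did not overlap Otx2, and Mef2d had 66.4 ± 21.1 and Nr2e3 49.9 ± 2.05. Lower down, Neurod1, Rorb, Crxos, Casz1 and Esrrb had means of 30.2, 21.2, 17.1, 14.3 and 12.3 TPM; Neurod1 was clear of Nr2e3, and below it each gene was within the spread of its neighbour. At 25 mM Crx had 439 ± 105 TPM and stood clear of Nrl, which had moved up to second place with 241 ± 47.1. Otx2 had 233 ± 66.6 TPM, Neurod1 143 ± 81.3 and Nr2e3 108 ± 17.03, each within the spread of its neighbour. Mef2d had gone from the fourth to the sixth place with 77.9 ± 23.1 TPM and overlapped Nr2e3. Crxos, Rorb and Casz1 followed with 47.9, 44.0 and 38.7 TPM, overlapping each other. Their mean ± SD ranges were clear of that of Mef2d. In single replicates Rorb reached 54.8 TPM in replicate 1, above the 53.4 TPM of Mef2d in replicate 2. Esrrb was again lowest with 21.5 TPM, clear of Casz1.

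Rod marker RNA moved in the same direction as the factors. All 8 rod markers had log2 fold changes above 0 and 3 were called. Over all genes, 49.3% were above 0 and 1.47% were called and higher at 25 mM. The summed CPM of the rod markers was 2919 to 5293 at 5 mM and 6395 to 8370 at 25 mM. Of 8 cone markers, 6 had log2 fold changes above 0 and 1 was called. All 8 microglia markers and 7 of 8 vascular markers had log2 fold changes below 0, with summed CPM of 284 to 382 and 946 to 1687 at 5 mM against 118 to 229 and 514 to 873 at 25 mM; 0 of them passed the test and none was at 0 throughout. Bipolar markers, where Otx2 is also expressed, had 4 of 8 above 0 and a summed CPM of 1346 to 1455 against 1097 to 1365. In bulk RNA, more cells of a type and more RNA per cell cannot be told apart, and the part of these markers in the change of the factors was not tested.

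Dividing each factor by the summed rod markers gave its level relative to rods. On this log2 scale Mef2d was the factor that ended lower without overlap, with -4.83, -4.80 and -4.84 at 5 mM and -5.38, -5.64 and -5.41 at 25 mM. Nrl was higher relative to rods, with -5.32, -5.71 and -5.67 at 5 mM and -5.04, -4.98 and -5.09 at 25 mM. Casz1 was higher too, by 0.52, and the arms of these 3 genes did not overlap (exact permutation test, two-sided p = 0.1 each, the smallest possible). Not overlapping on this scale was common, at 53.0% of all genes, so these 3 of 10 do not stand out. Crx differed by 0.53, Neurod1 by 1.24, Crxos by 0.55 and Nr2e3 by 0.18, each with overlap. In those 4 genes 5 mM replicate 1 was the highest of its arm; that replicate also had the lowest summed rod markers. Otx2 at -0.18, Esrrb at -0.08 and Rorb at 0.12 were close to 0 and changed sign under other settings.

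**Figure D3:**
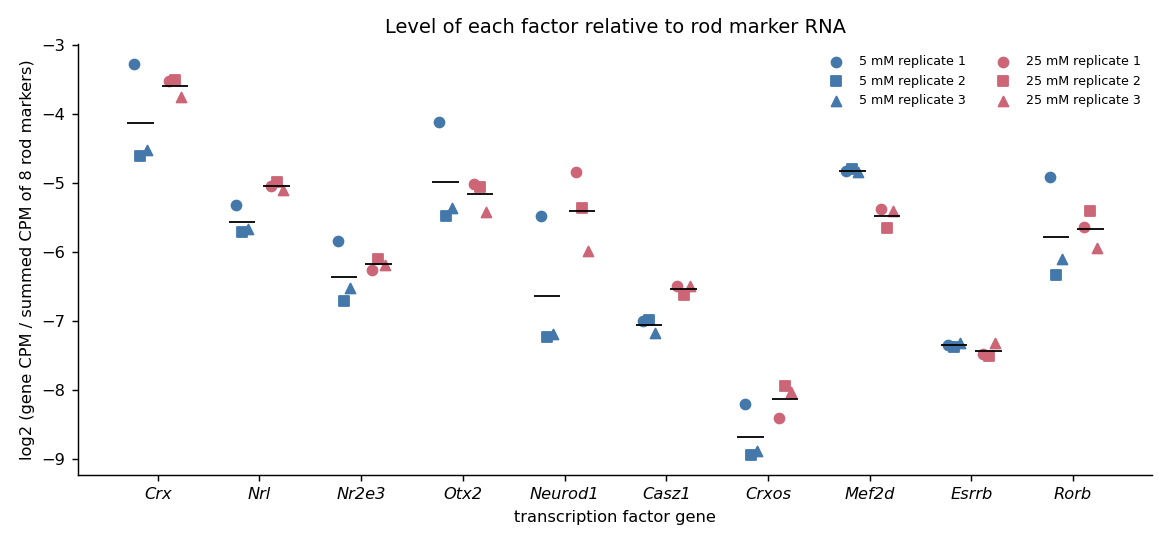
Level of each factor relative to rods, as the log2 ratio of its CPM to the summed CPM of 8 rod markers (vertical axis), per biological replicate, with bars at the means. Nrl and Casz1 at 25 mM sit above all of their 5 mM values, and Mef2d at 25 mM sits below all of its own. The 5 mM replicate 1 lies above the other 5 mM replicates in Crx, Nrl, Nr2e3, Otx2, Neurod1, Crxos and Rorb.

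The transcript table allowed a look inside the genes. Of 25 transcripts that made up at least 5% of a factor with more than 1 transcript, 9 had shares that did not overlap between the arms, against 19.3% of 30023 transcripts over all genes. They belonged to Nrl, Nr2e3, Crxos and Rorb. Each had an exact permutation p of 0.1, two-sided, and 0.278 after Benjamini-Hochberg adjustment over the 25, so none passed a threshold of 0.05, which 3 against 3 cannot reach. Shares rest on the authors' estimates of how reads divide between transcripts that overlap.

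Rorb had the largest shift. Rorb-203 starts at the upstream promoter (position 19111196) and had 68.3%, 82.4% and 63.7% of the gene's counts at 5 mM and 43.1%, 42.1% and 52.3% at 25 mM. Rorb-201 starts 110079 bases further along the gene, at position 19001117, and had 21.05%, 1.38% and 22.2% at 5 mM and 47.0%, 45.8% and 29.2% at 25 mM. In TPM, Rorb-203 was 11.2 ± 2.35 at 5 mM and 14.6 ± 3.24 at 25 mM, with overlap, whereas Rorb-201 was 2.64 ± 2.19 and 14.5 ± 6.86, without. The values of Rorb-201 were thus low and spread at 5 mM and higher in each 25 mM replicate. Both shares stayed apart without the 2 libraries of the 25 mM arm and in batch 2 alone, and overlapped in batch 1 alone. From the internal start, Rorb-202 had 3.42 ± 1.23 TPM at 5 mM and 4.55 ± 1.71 at 25 mM, with overlap. Rorb-205, a retained-intron transcript from there, had 3.66 ± 1.84 and 10.4 ± 0.642 TPM, without overlap. Transcripts from that start thus did not all respond alike. The 250 bases before each start are shown because Rorb-203 and Rorb-201 differ in start and in response. Capitals mark TGCTGA and the GC box GGGCGG, which SP and KLF proteins bind, on either strand.
Rorb upstream start, chr19:19111197-19111446, minus strand: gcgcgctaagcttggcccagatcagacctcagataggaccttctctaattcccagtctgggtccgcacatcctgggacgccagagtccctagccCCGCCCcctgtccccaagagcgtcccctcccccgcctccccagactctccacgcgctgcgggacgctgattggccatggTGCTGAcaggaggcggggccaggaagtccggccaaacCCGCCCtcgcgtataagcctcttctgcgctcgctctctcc
Rorb internal start, chr19:19001118-19001367, minus strand: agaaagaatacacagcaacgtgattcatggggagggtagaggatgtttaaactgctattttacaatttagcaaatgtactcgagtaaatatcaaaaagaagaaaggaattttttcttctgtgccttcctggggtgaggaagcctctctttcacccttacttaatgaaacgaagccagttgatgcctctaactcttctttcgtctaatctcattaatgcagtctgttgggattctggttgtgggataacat
The upstream stretch holds GGGCGG at 156 and 40 and TGCTGA at 77 bases before the start. The internal stretch holds none of the 7 motifs searched, which besides these and TAATCC were CAGATG (NEUROD1), AGGTCA (RORB and ESRRB), AAGTCA (NR2E3) and the MEF2 element. GGGCGG occurs in 35.7% of all windows. The windows differ in base composition as well, with 63.7% G and C at the upstream start and 41% at the internal start, against a median of 52.7% over all windows.

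Nrl shifted away from its main coding transcript. Nrl-203, with 4 exons, held 71.1%, 78.5% and 81.8% of counts at 5 mM and 56.3%, 49.4% and 58.2% at 25 mM. Nrl-206, annotated as a retained intron and running through 4973 bases as a single exon, held 7.74%, 2.66% and 1.15% at 5 mM and 16.98%, 19.6% and 12.1% at 25 mM. The short coding transcript Nrl-207, with 2 exons, had a share of 3.65% at 5 mM and 11.4% at 25 mM. In TPM Nrl-203 was nonetheless higher at 25 mM, 126 ± 31.8 against 70.5 ± 19.3, while Nrl-206 went from 1.20 ± 0.815 to 14.3 ± 3.82. None of these TPM values overlapped between arms. A larger share of retained-intron transcripts at 25 mM was common: it was higher in every 25 mM replicate in 33.5% of 7226 genes. Over the genes tested, such transcripts held 5.81% to 5.95% of counts at 5 mM and 6.93% to 7.75% at 25 mM. In batch 2 alone the shares of Nrl-203, Nrl-206 and Nrl-207 overlapped, and without the 2 libraries Nrl-206 overlapped.

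Nr2e3 moved the other way. Its coding transcript Nr2e3-201, with 8 exons, held 53.6%, 67.2% and 51.3% at 5 mM and 75.6%, 72.9% and 82.7% at 25 mM. The retained-intron transcript Nr2e3-202 held 44.7%, 27.2% and 47.1% at 5 mM and 16.1%, 23.0% and 13.2% at 25 mM. In TPM, Nr2e3-201 went from 26.7 ± 5.36 to 79.8 ± 14.7, and Nr2e3-202 had 21.3 ± 5.14 and 20.6 ± 3.93. The total share of the 6 retained-intron transcripts of Nr2e3 was lower in every 25 mM replicate, 42.6% ± 8.69 against 22.8% ± 5.12, a direction found in 1.07% of genes. In batch 1 the share of Nr2e3-202 was 52.6% at 5 mM and 11.5% at 25 mM, but in batch 2 it was 23.3% and 23.8%, and without the 2 libraries of the 25 mM arm the shares overlapped as well.

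Crxos shifted between its starts. Crxos-202, which begins next to Crx, held 46.8%, 39.4% and 34.7% at 5 mM and 54.5%, 47.4% and 52.9% at 25 mM. Crxos-201, which begins 13507 bases further on, held 38.6% ± 5.85 at 5 mM and 26.7% ± 2.09 at 25 mM. Both forms had more TPM at 25 mM, 3.22 ± 0.653 against 13.0 ± 1.97 for Crxos-202 and 7.44 ± 1.86 against 16.1 ± 1.08 for Crxos-201. The shares of both overlapped in batch 2 alone and without the 2 libraries. The main transcript of Crx, Crx-201, held 85.7% ± 7.002 at 5 mM and 91.0% ± 1.21 at 25 mM, with overlap.

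**Figure D4:**
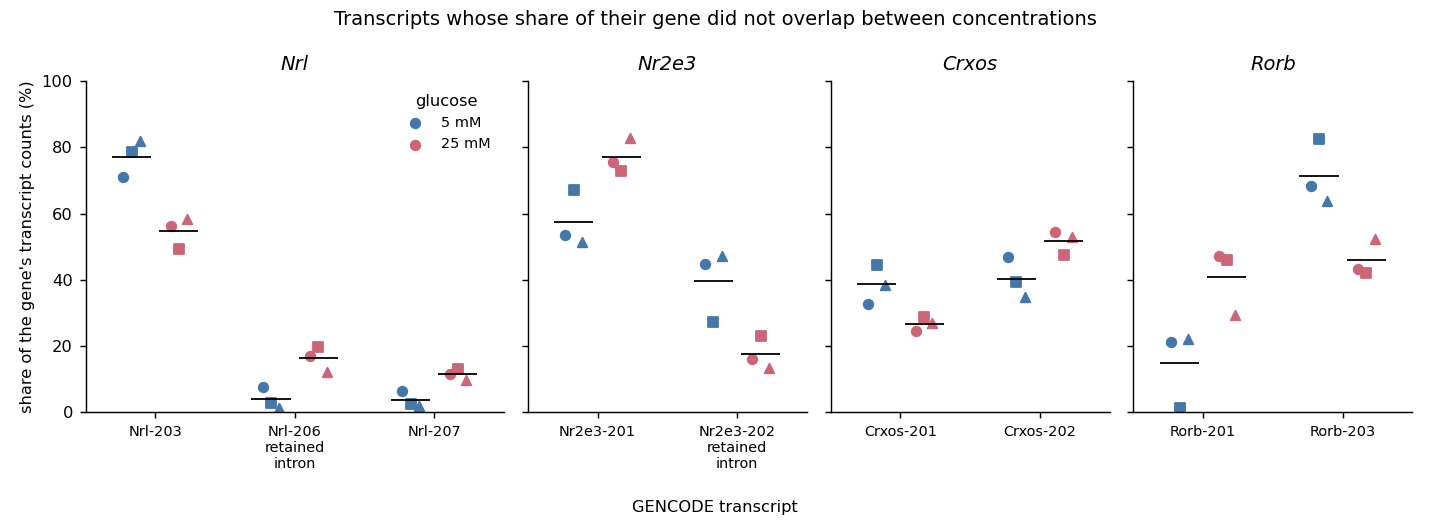
Share of a gene's transcript counts in percent (vertical axis) for the 9 transcripts of Nrl, Nr2e3, Crxos and Rorb whose shares did not overlap between arms; symbols are the 3 replicates at 5 mM and 25 mM glucose and bars the means. Rorb-203 and Rorb-201 go from 71.5% and 14.9% at 5 mM to nearly equal shares, 45.9% and 40.7%, at 25 mM.

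Genes that act with or under these factors were described by lists. Over all genes tested, 1.98% were called, 1.47% were called and higher at 25 mM, and 49.3% had log2 fold changes above 0. The counts of each list below are to be read beside these shares. Of 24 rod genes under CRX and NRL, 12 rose and 0 fell, and all 24 had log2 fold changes above 0, with a median of 1.02. Grk1, a kinase of the photoreceptor outer segment, rose from 81.6 ± 12.1 to 365 ± 94.6 CPM, a log2 fold change of 2.16 (SE 0.23, FDR 0.0217, edgeR). Pde6b, a catalytic subunit of the rod phosphodiesterase, rose by 1.65 on the log2 scale (FDR 0.0217). Slc24a1, the rod sodium-calcium exchanger, rose by 1.90 (FDR 0.0228). The list was written with earlier results of these data known, and its median is a description beside the -0.01 of all genes.

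Cone genes, which CRX also serves and NR2E3 holds down in rods, were mixed. Of 12, 1 rose and 0 fell, with a median log2 fold change of 0.16. Opn1mw, the medium-wave opsin, rose from 1.24 ± 0.123 to 4.18 ± 1.29 CPM, a log2 fold change of 1.75 (SE 0.31, FDR 0.0420, edgeR). Opn1sw, the short-wave opsin, went the other way, with 2.76 ± 0.194 CPM at 5 mM and 1.36 ± 0.149 CPM at 25 mM, a log2 fold change of -1.01 (FDR 0.0704). Gnat2, the cone transducin, had 1.39 (FDR 0.0594) and Pde6c, the cone phosphodiesterase, 0.70 (FDR 0.0735).

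Among 25 partners and cofactors, 3 rose and 0 fell, with a median of 0.21. Samd7 and Samd11, sterile alpha motif proteins that work with Polycomb repressors in rods, had log2 fold changes of 1.34 (FDR 0.0330, edgeR) and 1.51 (FDR 0.0423). Rax, a homeobox gene of the retina that cooperates with CRX, rose by 1.25 (FDR 0.0431). Thrb, the thyroid hormone receptor that sets the medium-wave opsin, had 1.27 with an FDR of 0.0512. Of 33 transcription factors of other retinal neurons and Mueller glia, 0 were called by edgeR, 12 had a log2 fold change above 0, and the median was -0.19. Among those of low p-value were Tcf4 at -0.85 (FDR 0.0644), Id3 at -1.68 (FDR 0.0954) and Ebf1 at -0.61 (FDR 0.132).

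**Figure D5:**
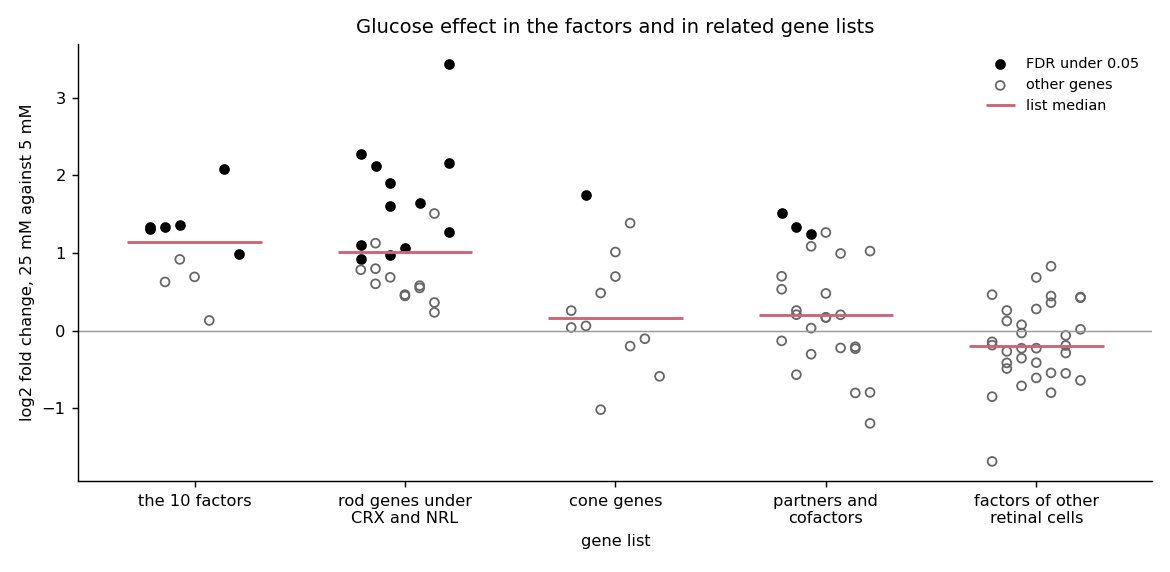
Log2 fold change at 25 mM against 5 mM glucose (vertical axis) of the 10 factors and of 4 related gene lists; filled points have an FDR under 0.05 in edgeR and bars are medians. The factors and the rod genes are all above 0, with medians of 1.15 and 1.02, and the factors of other retinal cells centre at -0.19.

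Likeness was measured over the 12 libraries, which share glucose and biological replicate and so are not 12 independent samples. Nrl and Nr2e3 were each other's most alike member, with Pearson's r of 0.980, and within concentrations r was 0.926. Crx was most like Neurod1 at 0.978, and 0.938 within concentrations. Otx2 was most like Rorb, at 0.915, and 0.928 within concentrations. Mef2d was the least alike, with 0.691 to Esrrb as its highest value. Among 10614 other genes of at least 10 CPM, those most like the mean of the factors were Sntg2 at 0.989, Cds1 at 0.987, Synpo2 at 0.982, Trafd1 at 0.980 and Gucy2e, a guanylate cyclase of photoreceptors, at 0.979.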

How the data were processed

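RNA was measured in 12 libraries. Per the labels, 4 ng of total RNA entered a stranded kit for low inputs with 13 amplification cycles, and the submitters' processing notes name GRCm38. The counting tool and its annotation are not given in the sources used here. Expected counts, as the authors deposited them, were given per gene and per transcript, not normalized, with technical replicates apart. The gene values are not the sums of the transcript values, although library totals match.

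Technical replicates were summed and rounded. Library totals lay between 14815285 and 36692484; they limit counting error only, since amplified reads are not independent molecules. Counts were filtered with filterByExpr, normalized by TMM and tested by edgeR 4.0.16 (quasi-likelihood) in its version 3 form, under R 4.3.3, without a replicate block. TPM and shares came from the transcript counts and GENCODE M21, which gave a symbol to 90.8% of gene identifiers. Exact permutation tests used scipy 1.17.1. Promoter windows (250 bases before to 50 after the start) came from RefSeq. Other tests were DESeq2 1.42.0 and limma-voom 3.58.1. The procedure was tested on simulated data.

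Named were all members, the 4 genes of lowest p in each related list and, where there were 8 or fewer, every called gene of it, genes that overlap a member, and the 5 genes most like the members; a few genes that this rule names, and a test of another choice of rod markers, are not reported here. The members, the lists and the tests were chosen with earlier results of these data known.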

Additional observations from a re-analysis of the deposited data

Results flagged for a closer look

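Each factor was examined in the 6 libraries of each concentration for a value far from the rest. Among the 20 groups, 0 held such a value, where chance would give about 1 if the libraries were independent. They are technical pairs and so are not independent. The rule looks for a single far value, and high values that stand together can hide each other from it. For Neurod1 at 25 mM the highest libraries had 454 and 265 CPM and the next had 152 CPM. The count of 0 therefore does not show that no library stood apart. The batch-by-glucose term had an FDR under 0.05 in 0 of the 10 factors by edgeR, and in 0 of all 18725 genes tested for it. Of those genes, 16.3% had an unadjusted p under 0.05 in that test, so the lack of calls does not show that the batches were alike.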

How the results depend on the processing

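The median log2 fold change of the factors stayed between 1.07 and 1.29 under 22 of 23 alternatives and was 0.86 without the 2 libraries of the 25 mM arm that resembled each other, an alternative added after seeing the data. The count at an FDR under 0.05, 6 as reported, was 0 in batch 2 alone and without those 2 libraries, and 0 to 8 with each replicate left out. Under the stricter rule (FDR below 0.01, more than 2-fold) the count, 0 as reported, was 5 with DESeq2 (6.25% of all genes), 4 without a filter on low counts (0.783%), 3 with 12 libraries and a batch term (0.582%), 2 in batch 1 alone (1.93%), 6 with GC content and length offsets (0.698%), 7 with these and the replicate block (3.42%), and 0 to 1 with each replicate left out (0% to 0.492%). The cause of these moves was not tested. The labels do not say whether same-numbered replicates of the arms were paired. Deviations of same-numbered samples from the means of their arms correlated at 0.037, -0.675 and 0.48. These values show no pairing, and with 3 samples per arm they cannot exclude one. With the replicate block 7 factors and 990 genes were called, in place of 6 and 417. Over all genes the count was 3215 with DESeq2, 1979 without a filter, 2918 with 12 libraries and a batch term, 3074 with GC content and length offsets and 3465 with these and the block. Of these, 1209 were higher at 25 mM with DESeq2 and 1281 with GC content and length offsets, beside 309 of 417.

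The count of transcript shares without overlap, 9 as reported, was 3 in batch 2 alone, 5 without the 2 libraries and 9 to 17 with each replicate left out, where 2 values in 1 arm overlap less often. The share of Nr2e3-202 differed by 0.505 percentage points in batch 2 in place of -22.2. Mef2d ranged from -0.087 to 0.31 with each replicate left out, and its sign changed without 5 mM replicate 1 (-0.087) or 25 mM replicate 1 (-0.013). Relative to rods, Otx2 was at 0.50 in batch 1 and 0.031 without the 2 libraries, and from -0.43 to 0.25 with each replicate left out. Esrrb was at 0.14 in batch 2 and 0.10 without the 2 libraries. Rorb was at -0.15 in batch 2, and from -0.16 to 0.55 with each replicate left out, below 0 without 5 mM replicate 2 (-0.16) or 3 (-0.043) or 25 mM replicate 2 (-0.0097). With GC content and length offsets Mef2d was called, at 0.48 (FDR 0.0382, edgeR), beside 14.6% of all genes.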

Other observations

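The ratio of Nrl to Crx was 0.241 in 5 mM replicate 1 and 0.462 and 0.451 in the other 5 mM replicates, and at 25 mM it was 0.348, 0.359 and 0.394. Its means, 0.384 ± 0.125 and 0.367 ± 0.0240, differed by less than the spread. The ratio of Neurod1 to Crx was 0.177 ± 0.0329 at 5 mM and 0.296 ± 0.0969 at 25 mM, with overlap (exact permutation test, two-sided p = 0.2). Both ratios were chosen after seeing the data.

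Within concentrations, Crxos had its highest correlation with Nrl, at 0.54, and a median of 0.12 with the other factors, whereas Crx had a median of 0.50. The pair next to each other on chromosome 7 thus rose by a like amount but differed in these correlations. Crxos had 195 to 713 counts per library and Crx 3973 to 20889, so counting error weighs more on Crxos. Its part in the low correlations was not tested. Casz1 was most like Mef2d within concentrations, at 0.859, although Mef2d did not pass the test. These correlations describe 12 libraries from 6 biological replicates.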
